A study of Mus musculus with 15 samples.

Results

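Levels are described for 10 regulators of epithelial identity in 4T1, a mouse mammary carcinoma line that metastasises. They are the splicing regulators Esrp1, Esrp2 and Rbm47, the grainyhead factors Grhl1 and Grhl2, the zinc finger repressor Ovol1, the ETS factors Elf3 and Ehf and the Krüppel-like factors Klf4 and Klf5. They were chosen by symbol, with earlier results of these data known, as were the gene lists used below. A gene was read by its brightest probe set (a group of short probes that reads 1 transcript) by mean over all arrays, and each of the 10 had 1 probe set. They are 10 of 19937 named genes. The probe sets are 10511560 for Esrp1, 10581455 for Esrp2, 10530269 for Rbm47, 10394954 for Grhl1, 10423770 for Grhl2, 10465106 for Ovol1, 10358027 for Elf3, 10485445 for Ehf, 10513008 for Klf4 and 10416777 for Klf5.

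The data are 15 arrays, 3 for each of 5 lines. Unmodified 4T1 is called parental. Tw1KD is 4T1 depleted of its own Twist1, a transcription factor of epithelial-mesenchymal transition (EMT). The remaining lines carry Twist1 again on the Tw1KD background, as wild type (WT), as S42A (a serine changed to alanine, which cannot be phosphorylated) or as S42D (that serine changed to aspartate, which is charged as a phosphate is). All 4 derived lines share the depletion, and the 3 re-expressing lines were compared with the same Tw1KD arrays. The labels give puromycin (4 µg/ml) and G418 (800 µg/ml) in the medium and harvest at 70% confluency, without saying whether parental cells had the drugs. S42D was identified by sample title, because its genotype entry lists both changes. The method of depletion and whether a line is 1 clone are not given in the sources used here. Nothing says that replicates were separate cultures, so p-values measure only the spread between these samples, which may be technical.

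Epithelial identity is kept by factors that activate junction genes and restrain EMT factors. Grhl2 and Ovol1 are known to oppose Zeb factors and to favour E-cadherin, while the Esrp proteins bind pre-mRNA and favour the epithelial exons of genes such as Fgfr2, Cd44 and Ctnnd1. Twist1 binds DNA at E-boxes, short sites of the form CANNTG.

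RefSeq start-site windows (assembly GRCm38.p6), the 250 bases before a start, were held for 4 of the 10 genes, Elf3 and Klf4 with 1 start, Rbm47 with 3 and Grhl1 with 2. The windows printed are those with 2 or more CANNTG, in capitals, since this is the form of site that Twist1 binds; they were thus chosen for their matches, and the form reads the same on both strands.
Elf3, chr1:135258473-135258722, minus strand: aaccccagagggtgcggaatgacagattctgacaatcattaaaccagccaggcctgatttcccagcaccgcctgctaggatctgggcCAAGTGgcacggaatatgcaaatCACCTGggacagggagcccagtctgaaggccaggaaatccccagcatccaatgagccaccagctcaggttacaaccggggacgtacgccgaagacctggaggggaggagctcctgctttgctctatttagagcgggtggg
Klf4, chr4:55532476-55532725, minus strand: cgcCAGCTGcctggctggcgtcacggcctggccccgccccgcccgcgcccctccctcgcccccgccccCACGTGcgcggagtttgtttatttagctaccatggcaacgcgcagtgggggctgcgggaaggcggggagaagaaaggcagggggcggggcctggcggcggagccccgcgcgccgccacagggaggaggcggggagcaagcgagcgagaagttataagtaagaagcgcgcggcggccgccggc
Rbm47, chr5:66098180-66098429, minus strand: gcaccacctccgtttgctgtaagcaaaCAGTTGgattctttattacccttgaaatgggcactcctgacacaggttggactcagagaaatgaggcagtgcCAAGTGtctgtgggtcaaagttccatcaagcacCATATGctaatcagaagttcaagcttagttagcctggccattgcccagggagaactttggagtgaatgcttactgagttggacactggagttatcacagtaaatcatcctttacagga

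The Elf3 window held CAAGTG at -163 and CACCTG at -140, counted from the start to the first base of the site. The Klf4 window held CAGCTG at -247 and CACGTG at -182. The Rbm47 window shown held CAGTTG at -223, CAAGTG at -151 and CATATG at -118, while those of its other starts held 1 (CAGTTG at -72) and 0. The Grhl1 windows held 1 (CAGCTG at -180) and 0. Such letters are common: 66.2% of 32851 windows of this length held a CANNTG, and 17.2% held CACCTG or its reverse complement CAGGTG. A match is a description of the letters and not a site of binding.

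Values are log2 intensities, on which a difference of 1 is a 2-fold change. Arrays of 1 line correlated at 0.997 to 0.999 across genes and arrays of different lines at 0.975 to 0.987; genes are not independent replicates. The median standard deviation (SD) within lines was 0.066. A line mean under 5.50, the 25th percentile of all gene-by-line means, is called dim, and a fold against a dim level is understated. None of 6 carcinoma epithelium markers (among them Krt8, Krt18 and Cdh1) was dim in any line, with summed levels of 13.79 to 14.17. Epcam was near the limit in the re-expressing lines. It read 5.64, 5.64 and 5.69 in WT, 5.47, 5.64 and 5.54 in S42A and 5.49, 5.69 and 5.71 in S42D. Krt5 was low throughout, from 5.65 on a Tw1KD array to 6.04 on an S42A array. Of 5 leukocyte markers measured, 3 to 4 were dim (Ptprc, Itgam and Adgre1 in every line), with summed levels of 7.82 to 8.10. Of 6 fibroblast markers Lum was dim throughout and Dcn in Tw1KD and WT, and the summed level was 11.65 to 11.73 in parental cells, 10.24 to 10.35 in Tw1KD, 10.54 to 10.59 in WT, 11.18 to 11.24 in S42A and 12.10 to 12.20 in S42D. Of 5 endothelial markers Kdr, Tek and Emcn were dim in every line, and the summed level was 10.77 to 10.81 in S42D against 7.51 to 8.28 elsewhere. Cdh5 read 10.66, 10.70 and 10.65 in S42D. Pecam1 was not higher there, with 5.53, 5.48 and 5.55 in S42D and 5.67, 5.57 and 5.48 in parental cells. Among fibroblast markers Pdgfra read 11.34, 11.23 and 11.30 in parental cells, 9.61, 9.60 and 9.58 in Tw1KD and 11.33, 11.43 and 11.37 in S42D. Pdgfrb read 8.48, 8.41 and 8.46 in parental cells and 10.49, 10.58 and 10.59 in S42D. The collagen genes were not higher in S42D. Col1a1 read 7.70, 7.76 and 7.66 in parental cells and 7.34, 7.49 and 7.59 in S42D, and Col1a2 7.45, 7.49 and 7.31 and 7.12, 7.30 and 7.37. The part of these markers in the results was not tested. In bulk RNA, fewer cells that express a gene and less RNA of it per cell cannot be told apart. Twist1 averaged 9.03 ± 0.030 (SD, n = 3) in parental cells, 7.35 ± 0.12 in Tw1KD, 8.33 ± 0.16 in WT, 8.70 ± 0.099 in S42A, and its S42D arrays read 9.07, 8.96 and 8.97. Whether its probe set reads the introduced Twist1 is not known.

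On depletion of Twist1 6 of the 10 regulators rose (Esrp2, Ovol1, Klf5, Elf3, Grhl2 and Grhl1), 2 fell (Esrp1 and Klf4) and 2 were not called (Rbm47 and Ehf). A call is an adjusted p under 0.05 in limma's 2-sided moderated test, with Benjamini-Hochberg adjustment over all genes. Of all genes 36.3% were called, 19.9% higher and 16.4% lower. At least 2-fold changes were called for 3 members (Esrp1, Esrp2 and Ovol1) and for 2.65% of all genes. The median difference was 0.50 over the 10 and 0.0051 over all genes.

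With Twist1 returned, 6 of the 10 fell against Tw1KD in WT (Esrp2, Ovol1, Klf5, Rbm47, Grhl1 and Elf3) and 1 rose (Klf4), where 48.0% of all genes were called, 23.5% higher and 24.5% lower. In S42A 6 fell (Grhl2, Esrp2, Ovol1, Rbm47, Klf5 and Grhl1) and 1 rose (Klf4), with 42.5% of all genes called, 22.8% higher and 19.7% lower. In S42D 6 fell (Esrp2, Ovol1, Klf5, Elf3, Grhl1 and Grhl2), with 43.4% of all genes called, 21.7% higher and 21.7% lower. By limma 0 members rose in S42D (0 also at an unadjusted p under 0.05), but Rbm47 was called higher with array weights (0.19). The members shared by all 3 falls were Esrp2, Ovol1, Klf5 and Grhl1, the last with a call in S42A that was lost under several alternatives. These comparisons use the same Tw1KD arrays and are not independent, and the share of all genes lower in all 3 was not computed. Medians over the 10 were -0.27, -0.65 and -0.41, and over all genes -0.0614, -0.0125 and -0.0448. Called changes of at least 2-fold numbered 2 in WT (Esrp2 and Ovol1), 5 in S42A (with Grhl2, Rbm47 and Klf5 besides) and 2 in S42D (Esrp2 and Ovol1), against 4.84%, 4.84% and 4.55% of all genes.

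**Figure D1:**
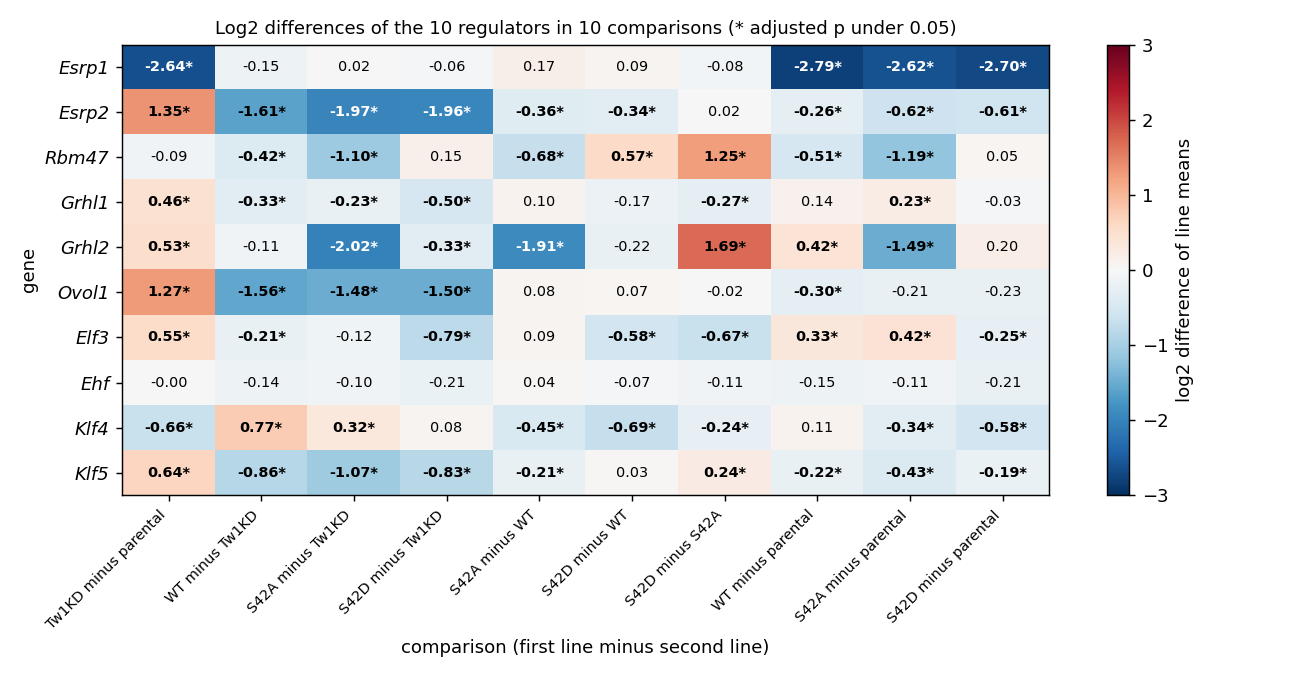
Log2 differences of the 10 regulators (rows) in 10 comparisons of lines (columns); colour runs from lower to higher in the first-named line, and an asterisk marks an adjusted p under 0.05. Esrp1 is far below 0 in each comparison with parental cells (-2.79 to -2.62), and Grhl2 in S42A against Tw1KD (-2.02).

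Esrp1, a splicing regulator of epithelial exons, was high in parental cells alone. It read 8.01, 7.64 and 7.88 in parental cells and 5.27, 5.27 and 5.06 in Tw1KD. The arrays read 4.96, 5.12 and 5.08 in WT, 5.30, 5.15 and 5.22 in S42A and 5.19, 5.12 and 5.13 in S42D. All 12 arrays of derived lines lay below the parental arrays, and the 4 derived lines were dim. On depletion Esrp1 fell by 2.64 ± 0.086 (standard error), 6.24-fold (adjusted p = 1.4e-11). With Twist1 returned it was not called against Tw1KD: the differences were -0.15, 0.021 and -0.057, each ± 0.086 (adjusted p = 0.169, 0.89 and 0.636). Against parental cells they were -2.79 in WT, -2.62 in S42A and -2.70 in S42D.

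Esrp2, the paralogue of Esrp1 with a like role, was highest in Tw1KD. It read 8.38, 8.28 and 8.37 in parental cells and 9.69, 9.57 and 9.82 in Tw1KD, a rise of 1.35 ± 0.064 or 2.54-fold (adjusted p = 6.93e-10). The arrays read 8.08, 8.08 and 8.07 in WT, 7.67, 7.72 and 7.77 in S42A and 7.83, 7.63 and 7.74 in S42D. Every array of a re-expressing line lay below the parental ones. Esrp2 fell against Tw1KD in all 3 (-1.61 in WT, -1.97 in S42A and -1.96 in S42D, each ± 0.064; adjusted p = 6.24e-11, 6.48e-12 and 7.06e-12). Against parental cells the differences were -0.26, -0.62 and -0.61, the first not called with median centring of the arrays (-0.16). Both mutants were under WT, by differences of -0.36 in S42A and -0.34 in S42D (adjusted p = 0.000327 and 0.000377). S42D and S42A overlapped (0.015 ± 0.064, adjusted p = 0.897).

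Rbm47, an RNA-binding protein of RNA editing and splicing, separated the 3 re-expressing lines. It read 9.79, 9.76 and 9.70 in parental cells, 9.58, 9.64 and 9.75 in Tw1KD and 9.87, 9.81 and 9.73 in S42D. These lines were not called apart (adjusted p = 0.359 for Tw1KD minus parental, 0.111 for S42D minus Tw1KD and 0.605 for S42D minus parental). The arrays read 9.23, 9.27 and 9.21 in WT and 8.40, 8.57 and 8.71 in S42A, below all arrays of the other lines. Against Tw1KD Rbm47 fell by 0.42 ± 0.070 in WT and by 1.10 ± 0.070 in S42A (adjusted p = 0.000152 and 9.46e-09). S42A minus WT was -0.68 and S42D minus WT 0.57 (adjusted p = 2.02e-06 and 8.79e-06). S42D was 2.37-fold above S42A (adjusted p = 4.08e-09). The mutants thus lay on opposite sides of WT.

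**Figure D2:**
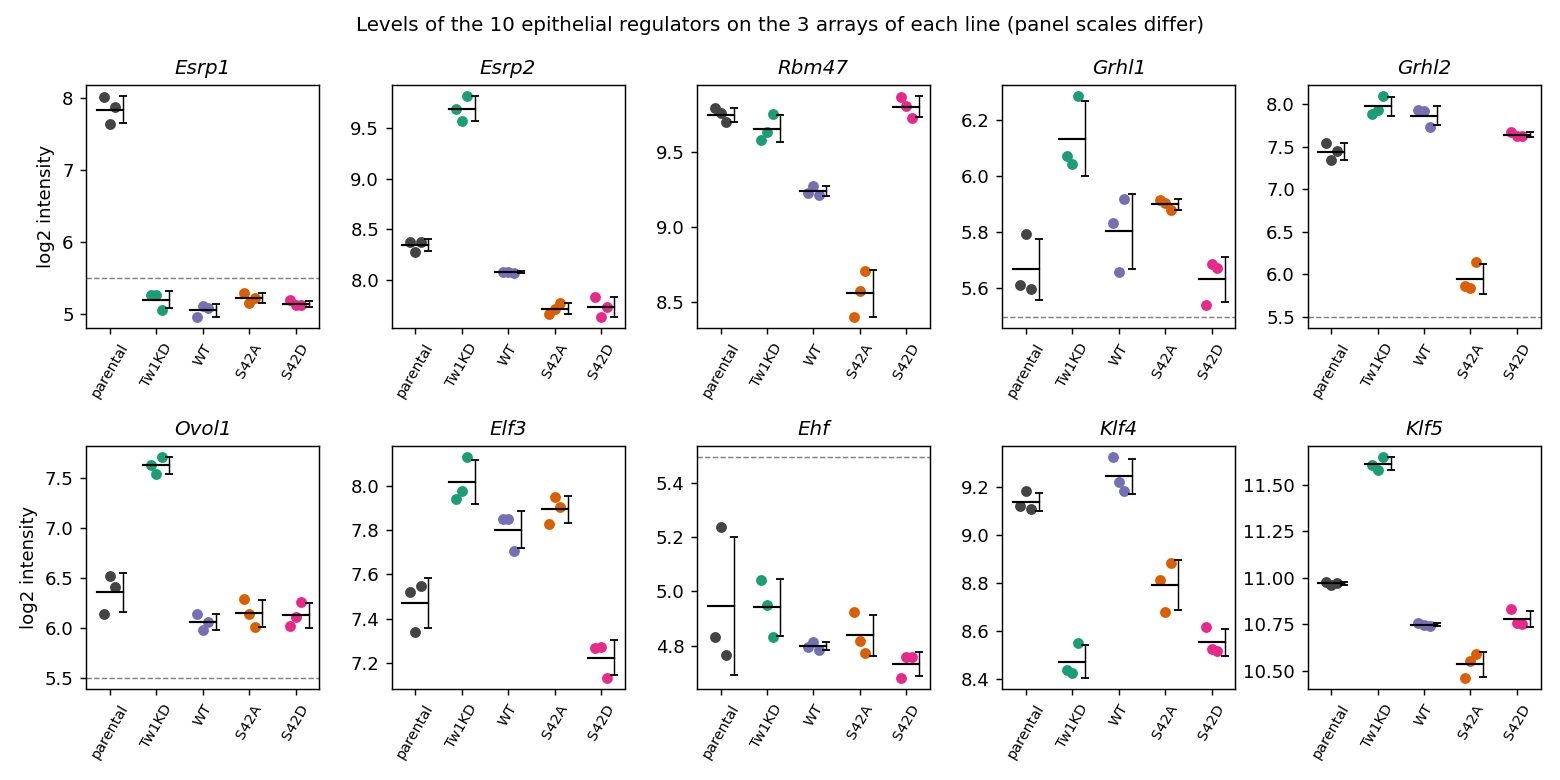
Log2 intensity of each regulator on every array (points, 3 per line) with the line mean and SD (error bars); a dashed line marks the dim limit of 5.50 where it falls in range, and panels differ in scale. Esrp1 is high in the parental arrays, Esrp2 and Ovol1 are highest in Tw1KD, and Grhl2 and Rbm47 are lowest in S42A.

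Grhl2, a grainyhead factor that activates junction genes, was low in S42A. It read 7.54, 7.34 and 7.45 in parental cells, 7.89, 7.93 and 8.09 in Tw1KD and 7.94, 7.91 and 7.73 in WT. The arrays read 5.86, 5.84 and 6.15 in S42A and 7.67, 7.63 and 7.63 in S42D. Each S42A array was more than 1 log2 below every array of the other lines. Grhl2 rose by 0.53 ± 0.086 on depletion (adjusted p = 0.000172). Against Tw1KD it fell by 2.02 ± 0.086 in S42A, 4.06-fold (adjusted p = 1.26e-10), and by 0.33 in S42D (adjusted p = 0.00582); WT was not called (-0.11, adjusted p = 0.313). S42A minus WT was -1.91 and S42D minus S42A 1.69 (adjusted p = 3.94e-10 and 1.43e-09). S42D minus WT missed the threshold (-0.22, adjusted p = 0.0545) and was called under 6 alternatives, among them median centring (-0.31) and WT replicate 3 left out (-0.28). Against parental cells WT was 0.42 (adjusted p = 0.000916) and S42A -1.49 (adjusted p = 4.67e-09).

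Grhl1, a related factor, moved less. It read 5.61, 5.79 and 5.60 in parental cells, 6.07, 6.04 and 6.28 in Tw1KD and 5.83, 5.66 and 5.92 in WT. The arrays read 5.91, 5.90 and 5.88 in S42A and 5.54, 5.69 and 5.67 in S42D. The Tw1KD arrays were above all others. Grhl1 rose by 0.46 ± 0.079 on depletion (adjusted p = 0.000256) and fell against Tw1KD in WT (-0.33), S42A (-0.23) and S42D (-0.50; adjusted p = 0.00301, 0.0273 and 0.000102). The call in S42A was lost with median centring (-0.20), without Tw1KD replicate 3 (-0.16) and without S42A replicate 1, 2 or 3 (-0.24, -0.24 and -0.22). S42D minus S42A was -0.27 (adjusted p = 0.0155), lost without S42D replicate 1 (-0.22). S42A minus parental was 0.23 (adjusted p = 0.0303), lost without parental replicate 1 or 3 (0.20 and 0.20) and without S42A replicate 1, 2 or 3 (0.22, 0.23 and 0.24). WT against parental cells (0.14) and S42D against WT (-0.17) were not called but became so with median centring (0.24 and -0.27) and quantile normalization (0.24 and -0.23), the second also without WT replicate 2 (-0.24).

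Ovol1, a repressor that restrains EMT factors, was highest in Tw1KD. It read 6.14, 6.52 and 6.41 in parental cells and 7.63, 7.53 and 7.71 in Tw1KD, a rise of 1.27 ± 0.097 or 2.41-fold (adjusted p = 1.1e-07). The arrays read 6.13, 5.98 and 6.06 in WT, 6.28, 6.14 and 6.01 in S42A and 6.01, 6.10 and 6.25 in S42D, and these 3 lines overlapped. Ovol1 fell against Tw1KD in WT (-1.56), S42A (-1.48) and S42D (-1.50; adjusted p = 6.51e-09, 1.27e-08 and 1.12e-08). No difference among them was called: S42A minus WT was 0.084, S42D minus WT 0.065 and S42D minus S42A -0.019, each ± 0.097 (adjusted p = 0.542, 0.664 and 0.919). WT minus parental was -0.30 (adjusted p = 0.0206), lost with median centring (-0.20), quantile normalization (-0.19) and without parental replicate 2 (-0.21) or 3 (-0.27) or WT replicate 2 (-0.26). S42A and S42D were not called against parental cells (-0.21 and -0.23) and became called without parental replicate 1 (-0.32 and -0.34), and also without S42A replicate 1 (-0.28) and S42D replicate 3 (-0.30) respectively.

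Elf3, an ETS factor of epithelial differentiation, was lowest in S42D. It read 7.52, 7.34 and 7.55 in parental cells, 7.94, 7.98 and 8.13 in Tw1KD and 7.85, 7.85 and 7.71 in WT. The arrays read 7.83, 7.95 and 7.90 in S42A and 7.27, 7.27 and 7.13 in S42D. The S42D arrays were below all others. Elf3 rose by 0.55 ± 0.070 on depletion (adjusted p = 1.82e-05) and fell by 0.79 ± 0.070 in S42D against Tw1KD (adjusted p = 2.84e-07). S42D minus WT was -0.58 and S42D minus S42A -0.67 (adjusted p = 6.63e-06 and 2.53e-06). WT minus Tw1KD was -0.21 (adjusted p = 0.0204), lost with median centring (-0.16), without Tw1KD replicate 3 (-0.16) and without WT replicate 3 (-0.17); S42A was not called (-0.12, adjusted p = 0.189). Against parental cells WT and S42A were higher (0.33 and 0.42) and S42D lower (-0.25), the last lost without parental replicate 1 (-0.22) or 3 (-0.21) or S42D replicate 3 (-0.20).

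Ehf, the related ETS factor, was dim in all 5 lines. It read 4.83, 5.24 and 4.76 in parental cells, 5.04, 4.95 and 4.83 in Tw1KD, 4.79, 4.81 and 4.79 in WT, 4.92, 4.82 and 4.77 in S42A and 4.68, 4.76 and 4.76 in S42D. By limma it was called in 0 of 10 comparisons; at an unadjusted p under 0.05 it was lower in 2, S42D against Tw1KD (-0.21) and against parental cells (-0.21). With array weights it was called lower against Tw1KD in WT (-0.20), S42A (-0.18) and S42D (-0.25; in S42D also with median centring, -0.25, and with only these 2 lines fitted, -0.21), and without parental replicate 3 in S42D against parental cells (-0.30).

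Klf5, a zinc finger factor of proliferating epithelium, was highest in Tw1KD. It read 10.98, 10.96 and 10.97 in parental cells, 11.61, 11.58 and 11.65 in Tw1KD and 10.76, 10.75 and 10.74 in WT. The arrays read 10.46, 10.56 and 10.59 in S42A and 10.83, 10.76 and 10.75 in S42D. WT and S42D overlapped, and all S42A arrays were below both. Klf5 rose by 0.64 ± 0.041 on depletion (adjusted p = 1.85e-08) and fell against Tw1KD in WT (-0.86), S42A (-1.07) and S42D (-0.83; adjusted p = 4.3e-10, 4.27e-11 and 6.9e-10). S42A minus WT was -0.21 and S42D minus S42A 0.24 (adjusted p = 0.00074 and 0.000256). Against parental cells the differences were -0.22, -0.43 and -0.19, the first lost with median centring (-0.12).

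Klf4, a zinc finger factor of differentiated epithelium, moved the other way. It read 9.12, 9.18 and 9.11 in parental cells, 8.44, 8.43 and 8.55 in Tw1KD and 9.32, 9.22 and 9.18 in WT. The arrays read 8.81, 8.68 and 8.88 in S42A and 8.62, 8.53 and 8.52 in S42D. S42D overlapped with Tw1KD, and S42A lay between these and WT. Klf4 fell by 0.66 ± 0.058 on depletion (adjusted p = 4.47e-07) and rose by 0.77 in WT and 0.32 in S42A (adjusted p = 5.36e-08 and 0.000364), with S42D not called (0.081, adjusted p = 0.296). S42A minus WT was -0.45, S42D minus WT -0.69 and S42D minus S42A -0.24 (adjusted p = 1.92e-05, 1.75e-07 and 0.00461). WT was not called against parental cells (0.11, adjusted p = 0.15) but was with median centring (0.21), while S42A and S42D were lower (-0.34 and -0.58).

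Compared directly, S42A was below WT for 5 members (Grhl2, Rbm47, Klf4, Esrp2 and Klf5) and above it for 0, where 40.0% of all genes were called, 20.0% higher and 20.0% lower. That 0 from limma was also 0 at an unadjusted p under 0.05, and with array weights Elf3 was called higher (0.14). S42D was above WT for 1 (Rbm47) and below it for 3 (Klf4, Elf3 and Esrp2), with 43.3% of all genes called, 20.7% higher and 22.6% lower. S42D was above S42A for 3 (Grhl2, Rbm47 and Klf5) and below it for 3 (Elf3, Grhl1 and Klf4), with 36.1% of all genes called, 17.1% higher and 19.1% lower. Called changes of at least 2-fold were Grhl2 in S42A minus WT (3.16% of all genes), Grhl2 and Rbm47 in S42D minus S42A (3.16%) and 0 members in S42D minus WT (4.82%). Twist1 read higher in S42A and S42D than in WT (0.37 and 0.67, adjusted p = 0.00157 and 6.15e-06), so the form and the level of Twist1 cannot be told apart here.

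Against parental cells WT had 5 members lower (Esrp1, Esrp2, Klf5, Ovol1 and Rbm47) and 2 higher (Grhl2 and Elf3), with 49.0% of all genes called, 4984 genes higher and 24.0% lower. S42A had 6 lower (Esrp1, Grhl2, Rbm47, Esrp2, Klf5 and Klf4) and 2 higher (Elf3 and Grhl1), with 40.3% called, 22.6% higher and 17.7% lower. S42D had 5 lower (Esrp1, Esrp2, Klf4, Elf3 and Klf5), with 37.0% called, 19.8% higher and 17.2% lower. Limma called 0 members higher in S42D; at an unadjusted p under 0.05 there was 1, Grhl2 (0.20), which was called with only these 2 lines fitted (0.20). At least 2-fold changes were Esrp1 in WT (4.36% of all genes), Esrp1, Grhl2 and Rbm47 in S42A (3.52%) and Esrp1 in S42D (2.81%).

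The counts of the gene lists below stand beside a large share of all genes called. That share was 36.3% on depletion, and against Tw1KD 48.0% in WT, 42.5% in S42A and 43.4% in S42D. Among 24 relatives from the same families, 10 rose and 1 fell on depletion. Against Tw1KD 11 fell and 3 rose in WT, 10 and 3 in S42A and 11 and 1 in S42D. Klf2, a zinc finger factor, had the largest called change: it rose by 0.82 ± 0.056 on depletion (adjusted p = 3.35e-08) and fell against Tw1KD in WT (-1.48), S42A (-1.39) and S42D (-1.27). In the other direction were Klf3 on depletion (-0.19), Ubp1 in WT (0.50) and Klf13 in S42A (0.25) and S42D (0.17, lost with median centring, 0.13, and without Tw1KD replicate 1, 0.15). Grhl3, Ovol2 and Elf5, relatives of the grainyhead, Ovol1 and ETS members and not of the Krüppel-like ones, were called in 0 of the 10 comparisons by limma. Elf5 was near the dim limit of 5.50 in every line, with means of 5.54 in parental cells, 5.43 in Tw1KD, 5.57 in WT, 5.57 in S42A and 5.48 in S42D. At an unadjusted p under 0.05 there were 2 differences among these relatives. They were Ovol2 in S42D against S42A (-0.089, adjusted p = 0.0852) and Grhl3 in WT against Tw1KD (-0.21, adjusted p = 0.0905). Grhl3 was called lower in WT against Tw1KD without WT replicate 3 (-0.32), Elf5 higher there with quantile normalization (0.22), and Ovol2 lower in S42D with median centring against Tw1KD (-0.10), WT (-0.13) and S42A (-0.17), the last 2 also with quantile normalization (-0.10 and -0.10).

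Of 8 other epithelial transcription factors measured, 2 rose and 2 fell on depletion. Foxa1, a pioneer factor of luminal cells, rose by 1.56 ± 0.083, and Gata3, a luminal factor, fell by 0.81 ± 0.036 (adjusted p = 2.53e-09 and 3.55e-10). Against Tw1KD Gata3 rose by 0.67 in WT, where it was the 1 gene called, by 0.96 in S42A and by 0.57 in S42D. Foxa1 fell in S42A (-1.63) and in S42D (-1.44). In S42A 4 of the list rose and 1 fell, and in S42D 1 and 1.

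A list of epithelial genes taken as downstream of such regulators had 22 measured genes, and whether the regulators act on each of them was not tested. On depletion 12 rose and 2 fell, led by Dsg2, a desmosomal cadherin (2.29 ± 0.10), and Lcn2, a secreted lipocalin (-0.19). Against Tw1KD 15 fell and 2 rose in WT, 16 and 2 in S42A and 14 and 2 in S42D. List medians were 0.43, -1.44, -1.26 and -1.04 in these 4 comparisons. The adhesion gene Epcam fell most in WT (-4.10 ± 0.21) and the tight junction gene Cldn4 in S42A and S42D (-5.31 and -5.46, each ± 0.12). The largest rises were Lcn2 in WT and S42A (0.54 and 0.24) and the keratin Krt8 in S42D (0.22).

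Cdh1, the gene of E-cadherin, averaged 10.31 ± 0.023 (SD, n = 3) in parental cells, 11.46 ± 0.0027 in Tw1KD, 8.52 ± 0.0034 in WT, 6.34 ± 0.076 in S42A and 7.50 ± 0.068 in S42D. S42A minus WT was -2.18, S42D minus WT -1.02 and S42D minus S42A 1.17 (adjusted p = 1.38e-13, 1.92e-10 and 6.57e-11). The S42A mean was lowest in Cdh1 and, among members, in Grhl2, Rbm47, Klf5 and Esrp2, the last not called apart from S42D. The orders differed elsewhere. In S42D against WT Cdh1 and Esrp2 (-0.34) were lower and Rbm47 was higher (0.57). Grhl2 (-0.22) and Klf5 (0.031) were not called there. In WT against Tw1KD Cdh1 fell (-2.94), as did Rbm47 (-0.42), Klf5 (-0.86) and Esrp2 (-1.61), while Grhl2 was not called (-0.11). Over the 22 listed genes S42A was below WT for 9 and above it for 3. S42D was below WT for 7 and above it for 3, and above S42A for 7 and below it for 2. Of all genes 40.0%, 43.3% and 36.1% were called in S42A minus WT, S42D minus WT and S42D minus S42A.

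**Figure D3:**
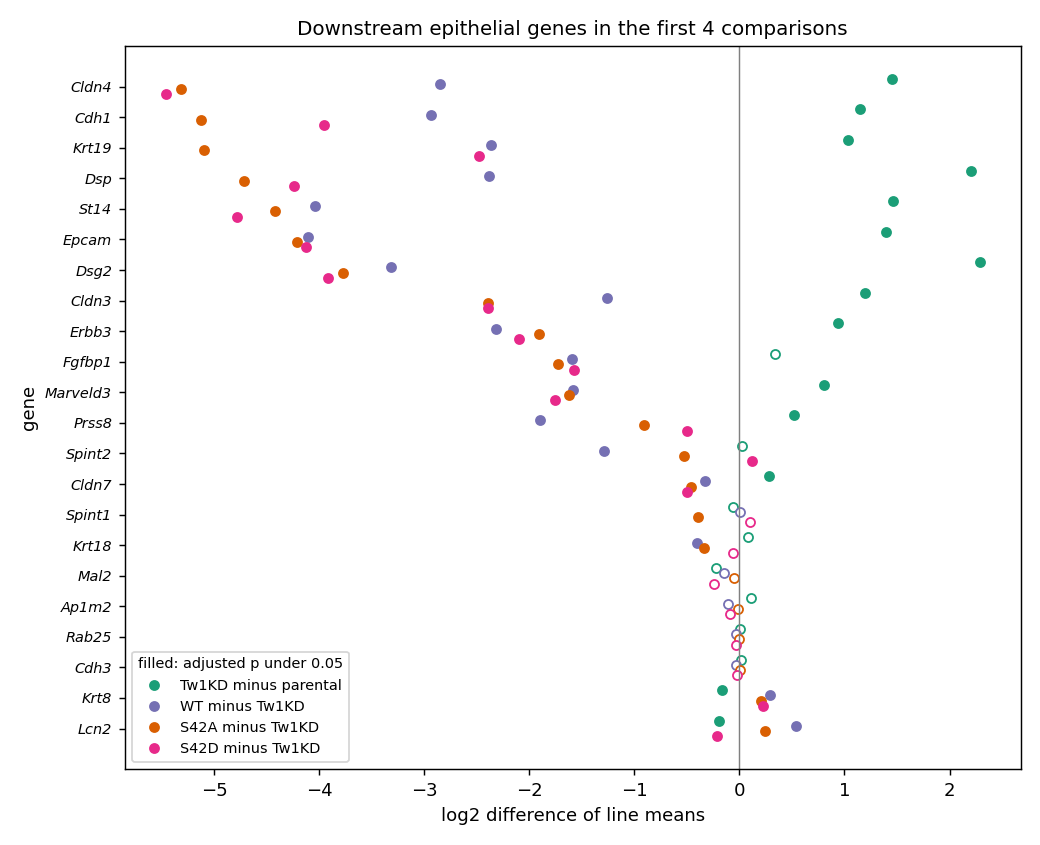
Log2 differences of the 22 epithelial genes listed as downstream (rows, ordered by S42A minus Tw1KD) in Tw1KD minus parental and in each re-expressing line minus Tw1KD. Filled points have an adjusted p under 0.05. Called points lie mostly above 0 on depletion (12 higher) and below 0 on return of Twist1 (15, 16 and 14 lower).

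The values are gene totals, so splicing by the Esrp proteins was not measured. Of 11 genes that they are known to splice, 4 rose and 4 fell on depletion, led by the kinase gene Slk (0.71 ± 0.043) and the exocyst gene Exoc7 (-1.61 ± 0.074). Against Tw1KD 7 rose and 2 fell in WT, 4 and 3 in S42A and 7 and 3 in S42D. The largest rises were those of the actin regulator Enah in WT and S42A (0.93 and 0.67) and of Exoc7 in S42D (1.24), and the largest falls those of Slk (-0.53, -0.78 and -0.94).

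Of 14 other splicing regulators, 2 rose and 8 fell on depletion, led by Mbnl3 (0.66 ± 0.054) and Celf2 (-1.48 ± 0.049). Against Tw1KD 11 rose and 3 fell in WT, 11 and 1 in S42A and 8 and 2 in S42D. List medians were -0.13 on depletion and 0.37, 0.33 and 0.16 on return. Srsf1 in WT (0.63) and Celf2 in S42A and S42D (0.91 and 1.31) rose most, and Mbnl1 in WT (-0.37), Mbnl2 in S42A (-0.59) and Mbnl3 in S42D (-0.34) fell most.

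Of 9 EMT factors, Twist1 among them, 5 fell and 1 rose on depletion. The rise was that of Zeb1 (0.16, adjusted p = 0.0425), lost under 8 alternatives, including without parental replicate 1, 2 or 3 (0.17, 0.16 and 0.15) and without Tw1KD replicate 1 or 2 (0.17 and 0.12). Against Tw1KD 3 rose in WT, 4 in S42A and 5 in S42D, led by Zeb2 in WT (1.06) and Twist1 in the mutants (1.36 and 1.65). In each line 1 fell: Tcf4 in WT (-0.39) and Foxc2 in S42A (-0.57) and S42D (-0.16). The last was lost with only the 2 lines compared fitted (-0.16) and without Tw1KD replicate 1 or 3 (-0.14 and -0.12). It was also lost without S42D replicate 1, 2 or 3 (-0.16, -0.15 and -0.15).

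The genes nearest in profile, with predicted and clone-named gene models passed over, were found for the 6 members whose line means spanned at least 1 log2. Nearness was the root mean square difference of the 5 line means, each gene centred on its own mean. For Esrp1 the nearest genes were Fermt1 (0.27 log2), Ccn4 (0.28) and Ctsc (0.29). For Esrp2 they were Pfkfb4 (0.10), Irf5 (0.11) and Morc4 (0.12), and for Rbm47 Serf1 (0.077), Stard13 (0.097) and Atg10 (0.11). Grhl2 had Nipal4 (0.17), Sdr39u1 (0.18) and Mbd1 (0.22), Ovol1 had Slc17a9 (0.046), Tacc1 (0.079) and Tspan1 (0.086), and Klf5 had Mettl2 (0.044), Usp53 (0.059) and Amigo1 (0.066). No member was among them. The range of line means was 2.79 log2 for Esrp1, wider than for 98.7% of all genes, 2.02 for Grhl2 (97.2%), 1.97 for Esrp2 (97.1%), 1.56 for Ovol1 (95.1%), 1.25 for Rbm47 (92.2%) and 1.07 for Klf5 (89.2%). It was 0.79 for Elf3 (80.4%), 0.77 for Klf4 (79.3%), 0.50 for Grhl1 (63.1%) and 0.21 for Ehf (30.0%).

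**Figure D4:**
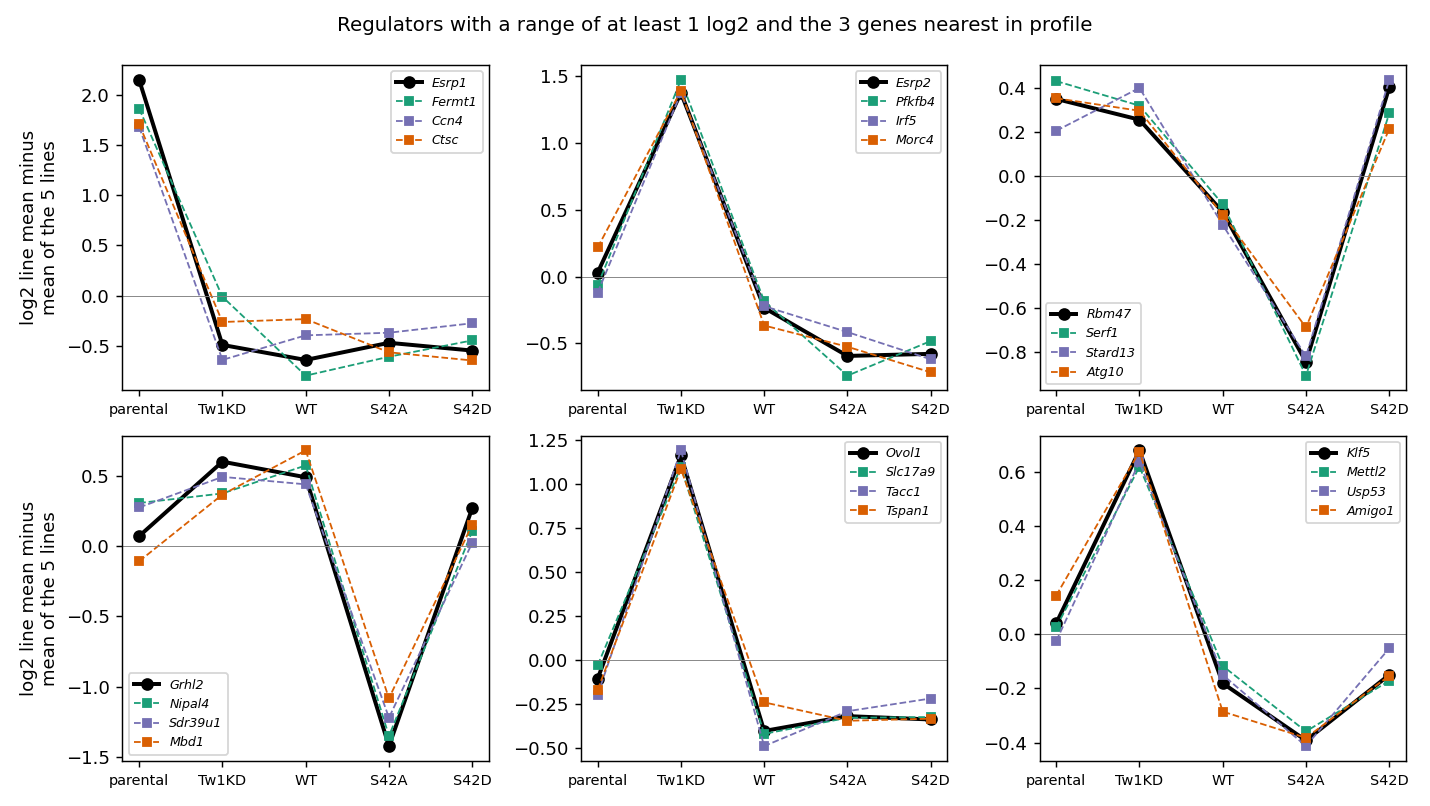
Line means in log2, minus the mean over the 5 lines, of the 6 members that spanned at least 1 log2 and of the 3 genes nearest to each. Esrp1 is high in parental cells alone, Esrp2, Ovol1 and Klf5 peak in Tw1KD, and Grhl2 and Rbm47 are lowest in S42A.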

How the data were processed

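The deposited values are log2 intensities of 34760 probe sets on 15 arrays, a unit read from the values. R 2.10.0 and affy are named, without their roles, per the submitters' processing notes; background correction, normalization and probe summary are not given in the sources used here. Probe sets with 1 symbol (21640) were kept, with 21553 symbols matched by gene number; 1321 with several symbols and 11799 with none were left out. The brightest probe set stood for each of 19937 genes. A limma 3.58.1 model (R 4.3.3) of all arrays, with a mean per line, gave 10 comparisons, Benjamini-Hochberg adjusted within each; it was tested on simulated data. The small number of arrays limits precision. Members and gene lists were chosen with earlier results of these data known. Genes named were all members, the largest called rise and fall of each list in the first 4 comparisons, Twist1, Grhl3, Ovol2, Elf5 and Cdh1, and the 3 nearest profiles. Cdh5 and the other cell type markers with array values given were named after their values were seen. Alternatives were median centring, quantile normalization, the mean of probe sets, a filter on dim genes, fits of 2 lines, a replicate block, array weights, another variance moderation and each array left out.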

Additional observations from a re-analysis of the deposited data

Results flagged for a closer look

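The effects of the 3 forms of Twist1 against Tw1KD differed by limma's test of the difference for 15 pairs of a member and 2 lines, over 10 members and 3 comparisons. By the same test 40.0% of all genes were called in S42A minus WT, 43.3% in S42D minus WT and 36.1% in S42D minus S42A. In S42A minus WT the differences were -1.91 for Grhl2, -0.68 for Rbm47, -0.45 for Klf4, -0.36 for Esrp2 and -0.21 for Klf5. In S42D minus WT they were -0.69 for Klf4, -0.58 for Elf3, 0.57 for Rbm47 and -0.34 for Esrp2. In S42D minus S42A they were 1.69 for Grhl2, 1.25 for Rbm47, -0.67 for Elf3, -0.27 for Grhl1, 0.24 for Klf5 and -0.24 for Klf4.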

How the results depend on the processing

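The number of members called was 8 for Tw1KD minus parental under every alternative run. With each array left out in turn it was 6 to 7 for WT minus Tw1KD, S42A minus Tw1KD and WT minus parental, 4 to 5 for S42D minus WT, 5 to 6 for S42D minus S42A, 7 to 8 for S42A minus parental, and as reported for the rest. Under the other alternatives the count reached 8 for S42D minus Tw1KD (6 reported) and 6 for S42D minus WT (4 reported). Of 100 pairs of a member and a comparison, 21 changed their call under at least 1 alternative, all with a reported difference of at most 0.30 in size, and none reversed; the cause was not tested. Among named genes that are no members (alternatives added after seeing the data), 17 of 1106 values lost their call and 7 gained one; besides those given above, Twist1 in S42D minus S42A lost it with median centring (0.22). With the replicate number as a block the counts were 8, 7, 7, 6, 5, 4, 6, 7, 8 and 5, the same as reported, and the block changed no member's call; of named genes it changed that of Zeb1 on depletion. Same-numbered arrays had correlated deviations over 0.1 in 7 of 30 pairs (-0.39 to 0.417). The highest were those of parental with Tw1KD, 0.394 for replicate 2 and 0.417 for replicate 3. These deviations are taken from means of 3 arrays and cannot settle whether the numbers pair the samples. Median centring moved the median of all genes in WT minus parental from -0.050 to 0.051. It moved the share of called genes that were higher from 54.8% to 65.2% in Tw1KD minus parental, 50.0% to 39.5% in S42D minus Tw1KD, 47.9% to 33.2% in S42D minus WT, 47.2% to 30.0% in S42D minus S42A, 51.0% to 68.4% in WT minus parental, 56.1% to 71.7% in S42A minus parental, and by less in the rest (49.0% to 57.5% in WT minus Tw1KD, 53.6% to 58.9% in S42A minus Tw1KD, 50.0% to 46.6% in S42A minus WT and 53.5% to 54.9% in S42D minus parental). The dim signals of Esrp1 in derived lines and of Ehf, and the signal of Elf5 near the dim limit, restrict which small changes could be seen.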
